A study of Mus musculus with 6 samples.

Results

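Interferon-stimulated genes, together with transcription factors of the interferon regulatory factor (IRF) and signal transducer and activator of transcription (STAT) families, were followed in mouse embryonic fibroblasts treated with erastin. The set held 38 genes, chosen by symbol: rows of the deposited count table whose Ensembl identifier has one of 38 listed GENCODE M21 symbols. All 38 had a row among the 43346 genes of the table, and 34 were abundant enough to be tested among 14000 genes. The rule uses no measured value, but the 38 genes were chosen with earlier results of these data known. Their shares beside those of all genes are descriptions, and no set test was run.

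The cells were primary mouse embryonic fibroblasts of the C57BL/6 strain at passage 9, a normal cell with a limited life span in culture. One group received 3 µM erastin and the other DMSO, the solvent, and RNA was taken after 24 h, with 3 libraries in each group. Erastin blocks the cystine/glutamate antiporter and serves to trigger ferroptosis, in which cells die as their lipids are oxidised in the presence of iron. The labels name no interferon and no virus in either group. The medium of both groups contained fetal bovine serum and 2-mercaptoethanol. The series' design text says that the experiment was done 3 times, but nothing says whether the libraries of a group came from separate cultures or embryos. If they did not, p-values measure the spread between these libraries, which may be technical.

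Interferons are secreted proteins that warn cells of viral infection. Type I interferons bind the receptor chains IFNAR1 and IFNAR2, the Janus kinases JAK1 and TYK2 then phosphorylate STAT proteins, and a complex that contains STAT2 and IRF9 binds interferon-stimulated response elements (ISREs) in promoters. Type II interferon acts through STAT dimers that bind gamma-activated sites (GAS). Fibroblasts transcribe many of the target genes weakly even without added interferon, and raise them strongly when they sense viral RNA or DNA.

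Promoter letters that these factors are known to read are shown first, for a few genes that fell and a few that were not called. The 250 bases before each RefSeq transcription start (GRCm38.p6) were searched on both strands for the ISRE core, GAAA followed after any 2 bases by another GAAA, and for the GAS letters TTCNNNGAA, which read the same on both strands. Sequences were found for 30 of 38 genes by symbol; Dhx58, Ifi27, Iigp1, Mx1, Mx2, Parp14, Usp18 and Zbp1 were not searched. Full upstream stretches are given for Stat2 and Irf1, which fell with erastin, and for Isg15, which was not called. Each is written 5′ to 3′ on the strand of its gene, with matches in capitals.
Stat2, chr10:128270248-128270497, plus strand: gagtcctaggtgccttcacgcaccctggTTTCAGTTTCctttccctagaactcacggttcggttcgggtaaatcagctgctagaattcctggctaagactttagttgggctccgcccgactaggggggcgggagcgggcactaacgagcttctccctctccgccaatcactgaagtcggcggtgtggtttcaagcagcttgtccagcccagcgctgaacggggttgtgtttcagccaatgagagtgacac
Irf1, chr11:53769764-53770013, plus strand: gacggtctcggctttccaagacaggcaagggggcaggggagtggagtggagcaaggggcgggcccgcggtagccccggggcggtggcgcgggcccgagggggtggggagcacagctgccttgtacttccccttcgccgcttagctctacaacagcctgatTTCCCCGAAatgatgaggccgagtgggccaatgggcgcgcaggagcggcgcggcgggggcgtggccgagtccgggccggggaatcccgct
Isg15, chr4:156200819-156201068, minus strand: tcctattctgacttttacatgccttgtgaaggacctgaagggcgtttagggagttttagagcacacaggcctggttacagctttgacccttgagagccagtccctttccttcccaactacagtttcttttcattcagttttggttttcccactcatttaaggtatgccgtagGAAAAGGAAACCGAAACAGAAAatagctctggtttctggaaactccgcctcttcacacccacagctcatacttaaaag

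In Stat2 the capitals are 1 ISRE core read on the opposite strand, in Irf1 they are 1 GAS match, and in Isg15 they are 3 overlapping ISRE cores. Stretches of 30 bases around the matches are given for Ifit1, a target gene that fell, and for 4 target genes that were not called.
Ifit1, chr19:34640785-34640814, plus strand: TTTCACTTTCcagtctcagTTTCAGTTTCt
Oas1a, chr5:120907526-120907555, minus strand: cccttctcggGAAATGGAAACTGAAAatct
Igtp, chr11:58199507-58199536, plus strand: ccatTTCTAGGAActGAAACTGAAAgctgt
Irgm1, chr11:48871428-48871457, minus strand: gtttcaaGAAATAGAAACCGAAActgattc
Gbp2, chr3:142620594-142620623, plus strand: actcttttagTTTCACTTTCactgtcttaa

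Ifit1 has 2 separate ISRE cores, Oas1a and Irgm1 each have 2 that overlap, and Igtp has a GAS match beside its ISRE core. An ISRE core was present in 14 of the 30 genes searched (46.7%), against 936 of 27025 genes with a promoter in the table (3.5%). GAS letters were present in 9 of 30 (30%), against 8.1% of all genes. Among the genes searched, 2 of the 7 that fell with erastin (Ifit1 and Stat2) and 10 of the 20 tested without a call had an ISRE core. A match is a description of letters, and sites outside the 250 bases were not searched. The starts are those of RefSeq. For some genes, Irf9, Ifi35, Ifit1, Irgm1 and Gbp2 among them, the searched bases overlap exons of the same gene in GENCODE M21. How far the shares depend on the start used was not tested.

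Libraries held 13333911 to 20509970 counts, and levels are given as CPM, the count scaled by library size and TMM factor. In these libraries 3 counts corresponded to 0.140 to 0.234 CPM. The fibroblast markers Col1a1, Col1a2, Col3a1, Pdgfra, Pdgfrb, Thy1, Dcn, Lum, Vim and Fn1 summed to 35433 to 38496 CPM in DMSO and 25455 to 26901 CPM in erastin libraries. Of these 10, 8 (80%) were lower with erastin (edgeR adjusted p under 0.05), against 21.5% of all genes tested. The 10 macrophage and leukocyte markers were Ptprc, Adgre1, Csf1r, Cd68, Itgam, Tyrobp, Lyz2, Fcer1g, Cd14 and C1qa. They summed to 43.4, 53.4 and 28.3 CPM in DMSO replicates 1, 2 and 3. In erastin replicates 1, 2 and 3 the sums were 64.4, 67.0 and 31.5 CPM. Lyz2 was the most abundant, at 19.2, 26.6 and 11.2 CPM in DMSO and 37.4, 39.2 and 17.6 CPM with erastin. Log2 fold changes were above 0 for 4 markers and below 0 for 6. Of these 10 markers none was at 0 everywhere and 0 were called by edgeR, with 2 at an unadjusted p under 0.05 and 1 called by DESeq2. Epithelial markers summed to at most 3.25 CPM, and endothelial markers to 5.10 to 7.71 CPM in DMSO and 14.1 to 17.4 CPM in erastin libraries. Kdr and Tek, 2 of the 3 endothelial markers tested, were called higher, against 21.6% of all genes tested. They averaged 8.25 and 6.23 CPM with erastin. Emcn, the other marker tested, was not called and overlapped between groups. Pecam1 and Cdh5 were too low to be tested and overlapped too. Their means were 0.0948 and 0.232 CPM in DMSO and 0.372 and 0.347 CPM with erastin. Cldn5 was at 0 in every library. Bulk RNA cannot tell fewer cells of a type from less RNA per cell.

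No interferon-related gene of the set rose with erastin, and 9 of the 34 tested fell: Irf1, Irf9, Stat2, Stat3, Usp18, Ifit1, Oasl2, Ifi35 and Parp14 (edgeR quasi-likelihood test, adjusted p under 0.05 over all genes tested). Of all 14000 genes tested, 21.5% fell and 21.6% rose. The share of set genes that fell, 26.5%, was therefore near the background, while 0 of 34 stood against 21.6% for rises. At an unadjusted p under 0.05, 1 gene of the set was higher (Ifit2), and DESeq2 called 0 higher and 9 lower. The median log2 fold change was -0.38 over the 34 genes and -0.001 over all genes tested. Log2 fold changes were below 0 for 27 genes and above 0 for 7. Irf1, Ifit1 and Oasl2 passed and fell by at least 1 on the log2 scale, as did 7.16% of all genes tested, and 0 rose by that much, against 4.99%.

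**Figure D1:**
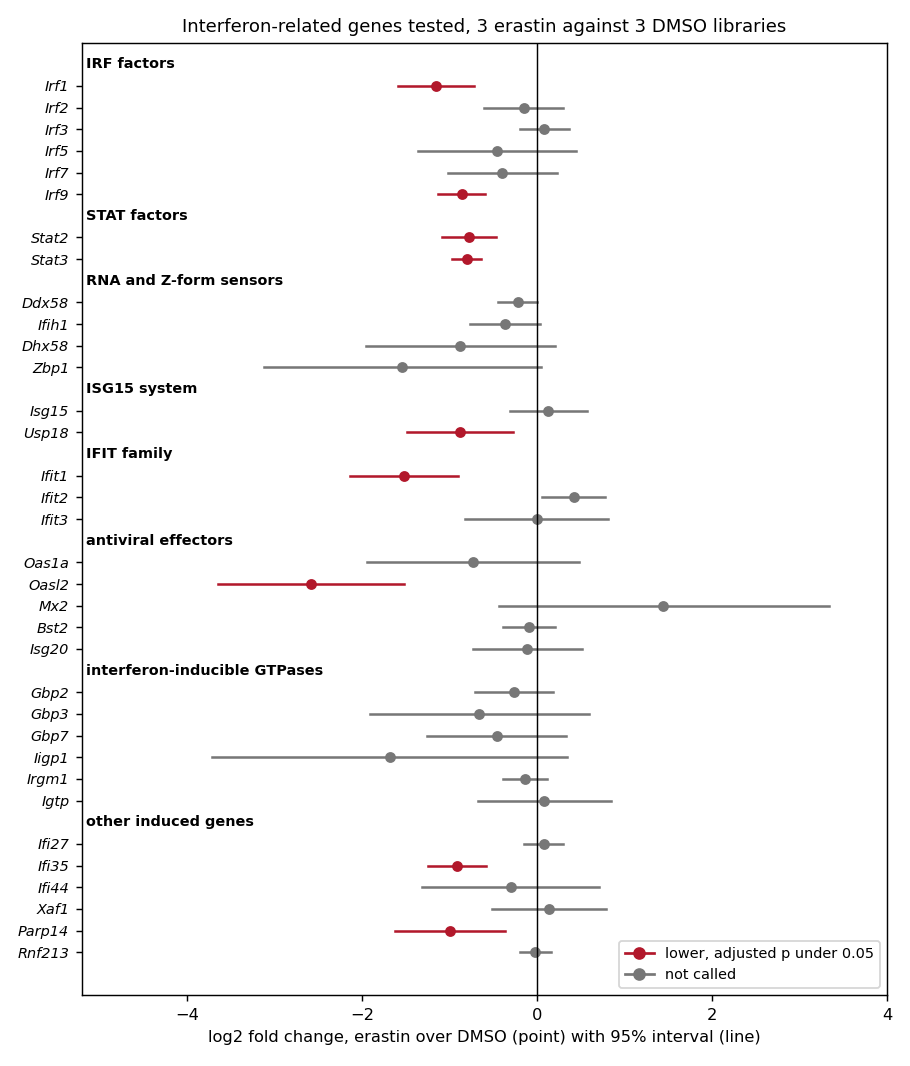
Log2 fold change of erastin over DMSO (horizontal axis) for the 34 interferon-related genes tested, arranged by role, with points for the estimate and lines for the 95% interval from 3 libraries a group. The 9 genes called lower (red) lie between -2.58 for Oasl2 and -0.78 for Stat2, and no interval of a called gene reaches 0.

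IRF and STAT factors accounted for 4 of the 9 falls. Among those tested, 2 of 6 IRF genes (33.3%) and 2 of 2 STAT genes fell, against 21.5% of all genes tested. Stat3 (chr11:100885098-100939540, minus strand), the transcription factor of the interleukin-6 family of cytokines, was at 225, 229 and 251 CPM in DMSO replicates 1, 2 and 3 and at 130, 140 and 133 CPM in erastin replicates 1, 2 and 3. The groups did not overlap, and erastin libraries stood at 57.3% of DMSO (log2 fold change -0.80, SE 0.08, with adjusted p = 8.66e-07 by edgeR). Stat2 (chr10:128270559-128292849, plus strand), the STAT specific to type I and III interferons, was at 26.6, 38.9 and 37.9 CPM in DMSO and at 20.7, 20.7 and 19.0 CPM in erastin libraries. DMSO replicate 1 was the lowest of its group but still above every erastin library (log2 fold change -0.78, SE 0.15, with adjusted p = 0.000588 by edgeR).

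Irf9 (chr14:55603571-55610030, plus strand), is the DNA-binding partner of STAT2. Its DMSO libraries held 29.5, 30 and 29 CPM and its erastin libraries 15.3, 16.7 and 16.7 CPM, with no overlap (log2 fold change -0.86, SE 0.13, with adjusted p = 6.31e-05 by edgeR). Irf1 (chr11:53770014-53778374, plus strand), itself an early target of interferon gamma, was at 12.9, 18.2 and 22 CPM in DMSO and at 7.50, 7.78 and 8.61 CPM with erastin. Its DMSO libraries were the more spread, all of them above the erastin libraries (log2 fold change -1.15, SE 0.20, with adjusted p = 0.000341 by edgeR).

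The remaining IRF genes were not called. Irf3, the factor that switches on the interferon beta gene after RNA or DNA sensing, was at 21.5, 20.9 and 23.4 CPM in DMSO and 23.4, 25.0 and 21.1 CPM in erastin libraries. The groups overlapped, and the 95% interval of its log2 fold change ran from -0.20 to 0.36. Irf2, a repressor and partner of IRF1 at the same sites, was at 12.7, 11.5 and 17.4 CPM in DMSO and 9.36, 13.0 and 15.0 CPM with erastin (95% interval -0.61 to 0.30). The interval of Irf3 excludes a change as large as those of Irf1 and Irf9.

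Irf7, which amplifies type I interferon production, was at 4.76, 5.93 and 4.90 CPM in DMSO and at 3.17, 4.31 and 4.41 CPM with erastin. All 3 erastin libraries lay below the DMSO libraries, but the difference did not pass (log2 fold change -0.40, SE 0.29, with adjusted p = 0.295 by edgeR). Irf5, best known from macrophages and B cells, was at 3.40, 2.49 and 3.35 CPM in DMSO and at 2.05, 3.23 and 1.45 CPM with erastin, with overlap and an interval from -1.36 to 0.44. Irf8, a myeloid factor, was too low to be tested, with 5, 11 and 8 counts in DMSO and 8, 9 and 4 counts in erastin libraries.

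Set per kilobase of the longest transcript, Stat3 was the most abundant factor in DMSO at 38.8 CPM per kb, followed by Irf3 (10.8), Irf1 (8.30), Stat2 (7.84), Irf9 (7.63), Irf2 (3.50), Irf7 (1.60), Irf5 (1.37) and Irf8 (0.155). With erastin the order of levels was Stat3 (22.2 CPM per kb), Irf3 (11.4), Stat2 (4.57), Irf9 (4.2), Irf1 (3.73), Irf2 (3.14), Irf7 (1.22), Irf5 (1.0) and Irf8 (0.107). On this scale Irf1, Stat2 and Irf9 lay within the spread of each other in DMSO. These 3 genes stood closer to Irf3 in DMSO than with erastin. Which transcripts the cells used was not measured, and a shorter transcript would raise a gene's level per kilobase, so the order depends on the length taken.

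**Figure D2:**
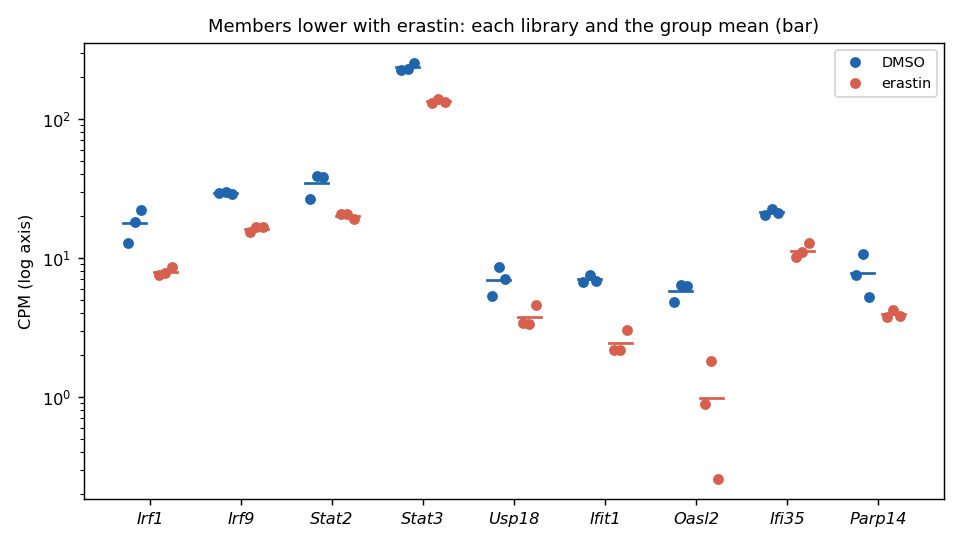
CPM on a log axis (vertical) of the 9 genes called lower, with 1 point per library, blue for DMSO and red for erastin, and a bar at each group mean. In all 9 genes, called from these same libraries, the highest erastin library is below the lowest DMSO library, as in 25.9% of all genes tested. The gap is widest in Oasl2 and narrowest in Usp18, where 4.61 CPM stands against 5.36 CPM.

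None of the 4 sensors of foreign nucleic acid was called (0 by edgeR, by DESeq2 and at an unadjusted p under 0.05), and all 4 had log2 fold changes below 0. Of all 14000 genes tested, edgeR called 43.1% in either direction, and 7013 had log2 fold changes below 0. In 3 of the 4 sensors (75%) all erastin libraries lay below all DMSO libraries, against 25.9% of all genes tested. Ddx58, which encodes the RNA sensor RIG-I, was at 40.9, 42.5 and 43.0 CPM in DMSO and 37.2, 32.7 and 38.4 CPM with erastin (log2 fold change -0.22, SE 0.11, with adjusted p = 0.102 by edgeR). Ifih1, which encodes the long-RNA sensor MDA5, was at 11.6, 13.3 and 12.4 CPM in DMSO and 8.19, 10.2 and 10.5 CPM with erastin (log2 fold change -0.37, SE 0.19, with adjusted p = 0.126 by edgeR). In both the groups did not overlap. Ddx58 passed under 3 of 17 alternative settings and Ifih1 under 1, each with an offset for GC content and transcript length among them (adjusted p = 0.0336 and 0.0485 there; ranges over the alternatives 0.0336 to 0.318 and 0.0485 to 0.357).

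Dhx58, which encodes the regulatory relative LGP2, was at 3.25, 2.11 and 1.79 CPM in DMSO and 0.791, 1.92 and 1.19 CPM with erastin, with overlap (95% interval -1.96 to 0.21). Zbp1, a sensor of Z-form nucleic acid that can start necroptosis, was at 0.831, 1.11 and 1.09 CPM in DMSO and 0.233, 0.718 and 0.104 CPM with erastin. All erastin libraries were lower, but with 2 to 20 counts a library the difference did not pass (log2 fold change -1.54, SE 0.74, with adjusted p = 0.104 by edgeR; 0.0450 without erastin replicate 2, where the log2 fold change was -2.52).

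Of the ISG15 system, 1 of 2 genes was called lower (50%), against 21.5% of all genes tested. Isg15, a ubiquitin-like protein that interferon-induced enzymes attach to other proteins, was at 10.4, 11.0 and 13.5 CPM in DMSO and 9.36, 13.9 and 14.9 CPM with erastin, with overlap (95% interval -0.31 to 0.57). Usp18 (chr6:121245906-121270917, plus strand), the protease that removes ISG15 and also restrains the type I receptor, was at 5.36, 8.54 and 7.01 CPM in DMSO and 3.40, 3.35 and 4.61 CPM with erastin. It passed with a log2 fold change of -0.88 (SE 0.29, with adjusted p = 0.0215 by edgeR), and no erastin library reached the lowest DMSO library. The call was lost in 4 of 17 alternatives. The log2 fold change was -0.70 without DMSO replicate 2 (adjusted p = 0.118 by edgeR), -0.81 without erastin replicate 1 (0.0797), -0.80 without erastin replicate 2 (0.0646) and -0.80 after thinning to the smallest library with the replicate block (0.0502). Its adjusted p ranged from 0.0127 to 0.118 over 17 alternatives. Whether Isg15 and Usp18 differ in their response was not tested.

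The IFIT genes encode proteins that bind viral RNA and sit side by side on chromosome 19. Ifit1 (chr19:34640871-34650009, plus strand), which recognises RNA caps that lack a methyl group, fell from 6.72, 7.54 and 6.85 CPM in DMSO to 2.19, 2.16 and 3.01 CPM with erastin. Erastin libraries stood at 34.9% of DMSO, far outside the spread of either group (log2 fold change -1.52, SE 0.29, with adjusted p = 0.000685 by edgeR). Ifit2 was the only gene of the family whose erastin libraries all lay above the DMSO libraries, at 18.9, 21.7 and 25.6 against 13.4, 18.3 and 17.7 CPM.

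That difference of Ifit2 did not pass (log2 fold change 0.42, SE 0.17, with adjusted p = 0.0542 by edgeR), but it lay next to the threshold: it passed in 6 of 17 alternatives, with adjusted p between 0.0248 and 0.204. Ifit3 was at 5.29, 7.59 and 5.99 CPM in DMSO and at 5.03, 2.87 and 10.9 CPM with erastin, so that erastin replicates 2 and 3 lay on either side of the whole DMSO group (log2 fold change -0.004, SE 0.38). Ifit3b was untested, with 3, 9 and 11 counts in DMSO and 12, 1 and 4 in erastin libraries. Ifit3 and Ifit3b are near copies: 51.2% of the 50-base words of the longest Ifit3 transcript also occur in another gene's transcripts, against 7.1% for Ifit1, and how reads were split between the copies is not given in the sources used here.

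Among the antiviral effectors, Oasl2 (chr5:114896936-114912234, plus strand), a relative of the oligoadenylate synthetases, had the most negative log2 fold change of the 34 genes tested. Its DMSO libraries held 4.84, 6.37 and 6.23 CPM and its erastin libraries 0.885, 1.80 and 0.259 CPM. Every erastin library was under the lowest DMSO library, at 16.7% of DMSO on the fitted scale (log2 fold change -2.58, SE 0.50, with adjusted p = 0.000784 by edgeR). The lowest value, in erastin replicate 3, rested on 5 counts. The log2 fold change was -3.31 without erastin replicate 2 and -2.13 without erastin replicate 3, and it passed both times (adjusted p = 0.000229 and 0.00112 by edgeR; range over the alternatives 1.67e-08 to 0.0069).

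Bst2, which encodes the virion-retaining membrane protein tetherin, had the highest level per kilobase after Ifi27 in both groups among the target genes, at 64.3 CPM per kb in DMSO and 60.7 with erastin. It was at 45.0, 63.9 and 43.8 CPM in DMSO and at 47.1, 54.9 and 42.3 CPM with erastin, with replicate 2 highest in each group and a 95% interval of the log2 fold change from -0.39 to 0.21. Isg20, an exonuclease gene, stayed between 3.99 and 5.29 CPM in all 6 libraries (95% interval -0.73 to 0.51). Oas1a was at 1.66, 4.21 and 1.01 CPM in DMSO and 1.68, 0.898 and 1.61 CPM with erastin, and 57.6% of its 50-base words also occur in other genes, Oas1g and Oas1b above all.

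Mx1, Rsad2 and Mx2, classical markers of an interferon response, had at most 14 counts in any library. Mx1, a dynamin-like GTPase gene known to be defective in C57BL/6 mice, had 5, 0 and 1 counts in DMSO and 1, 0 and 0 in erastin libraries. Rsad2, which encodes the antiviral enzyme viperin, had 2, 5 and 0 counts in DMSO and 0, 12 and 4 with erastin. Mx2 had 2, 10 and 0 counts in DMSO and 13, 14 and 13 with erastin. Only Mx2 was tested, and its log2 fold change of 1.44 had an interval from -0.44 to 3.33 (adjusted p = 0.190 by edgeR), the only interval among uncalled genes that reached a rise of 1. The estimate rested on single DMSO libraries: it was 3.08 without DMSO replicate 2 (adjusted p = 0.0598 by edgeR) and 0.93 without DMSO replicate 3 (adjusted p = 0.410 by edgeR), and over 14 alternatives adjusted p ran from 0.0598 to 0.410.

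None of the 6 interferon-inducible GTPase genes was called (0 higher and 0 lower by edgeR and by DESeq2, and 0 at an unadjusted p under 0.05). By edgeR 43.1% of all genes tested were called in either direction. The GTPases of this family attack membranes around intracellular parasites and bacteria and are induced above all by interferon gamma. Irgm1, a regulator of the family, was the most abundant per kilobase, at 59.8, 58.9 and 48.2 CPM in DMSO and 43.0, 54.0 and 54.6 CPM with erastin (95% interval -0.39 to 0.11). Gbp2 was at 12.0, 16.2 and 10.7 CPM in DMSO and 9.36, 10.0 and 13.2 CPM with erastin (95% interval -0.71 to 0.18). For both genes the intervals exclude a fall of 1 on the log2 scale.

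The other 4 GTPase genes were measured with wide intervals. Gbp3 was at 4.23, 1.44 and 0.934 CPM in DMSO and 1.02, 1.86 and 1.30 CPM with erastin, so that its log2 fold change of -0.66 became 0.21 without DMSO replicate 1. Gbp7 was at 2.72, 4.82 and 7.08 CPM in DMSO and 2.56, 3.65 and 4.41 CPM with erastin (95% interval -1.26 to 0.33). Igtp was at 3.02 and 3.31 CPM in replicate 1 of DMSO and erastin, and its interval ran from -0.68 to 0.84. Iigp1 was at 0.907, 1.55 and 0.778 CPM in DMSO and 0.0931, 0.958 and 0 CPM with erastin (log2 fold change -1.68, SE 0.95, with adjusted p = 0.167 by edgeR). Erastin replicate 2 alone reached the DMSO range, and without it the log2 fold change was -4.29 (adjusted p = 0.0104 by edgeR). It passed in 2 of 16 alternatives, with adjusted p between 0.0104 and 0.437.

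Of the 6 other induced genes, Ifi35 and Parp14 fell (33.3%, against 21.5% of all genes tested). Ifi35 (chr11:101448407-101458698, plus strand), which encodes a leucine-zipper protein and partner of NMI, was at 20.2, 22.3 and 21.2 CPM in DMSO and 10.1, 11.0 and 12.7 CPM with erastin. The spread in each group was small beside the gap between them (log2 fold change -0.92, SE 0.16, with adjusted p = 0.000244 by edgeR). Parp14 (chr16:35832874-35871544, minus strand), a mono-ADP-ribosyltransferase gene, was at 7.48, 10.7 and 5.22 CPM in DMSO and 3.77, 4.19 and 3.84 CPM with erastin (log2 fold change -0.996, SE 0.29, with adjusted p = 0.0124 by edgeR). Its call was lost without DMSO replicate 2 (log2 fold change -0.69, adjusted p = 0.112; range over the alternatives 0.00217 to 0.112).

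Rnf213, a giant ubiquitin ligase gene, was measured most precisely of all uncalled genes. It was at 145, 167 and 160 CPM in DMSO and 143, 168 and 154 CPM with erastin, and the 95% interval of its log2 fold change ran from -0.20 to 0.16. Ifi27, a mitochondrial protein gene, was at 70.9, 62.1 and 59.0 CPM in DMSO and 67.6, 59.6 and 75.4 CPM with erastin (95% interval -0.15 to 0.30). It passed as higher in 1 of 17 alternatives, the offset for GC content and length (log2 fold change 0.26, adjusted p = 0.0454 by edgeR). Ifi44 (95% interval -1.31 to 0.71) and Xaf1, an apoptosis-related gene (95% interval -0.52 to 0.79), overlapped between groups at 1.09 to 3.70 and 4.04 to 7.70 CPM.

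**Figure D3:**
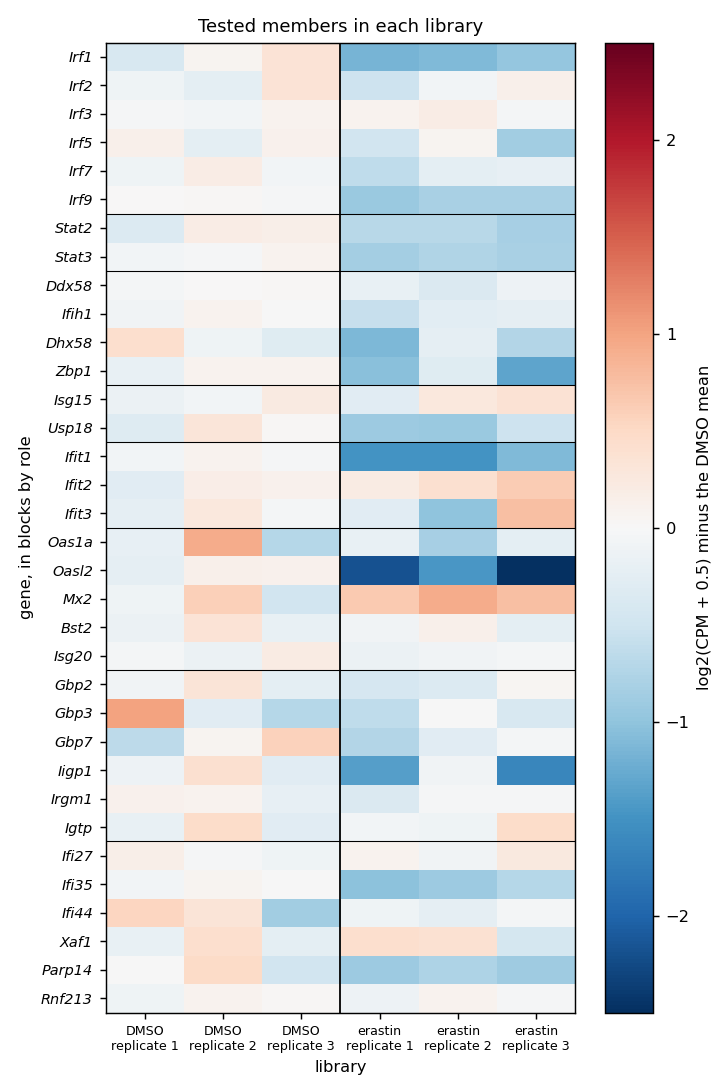
Each row is 1 of the 34 genes tested, in blocks by role, and each column is a library; the colour is log2(CPM + 0.5) minus the mean of the 3 DMSO libraries, blue for lower and red for higher. Oasl2, Ifit1, Irf1, Irf9, Stat3 and Ifi35 are blue in all 3 erastin libraries, whereas Ifit3, Oas1a, Gbp3 and Iigp1 vary between libraries of the same treatment.

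The erastin values were all under the DMSO values in 13 of the 34 genes (38.2%), against 25.9% of all genes tested; beside the 9 called genes these were Irf7, Ddx58, Ifih1 and Zbp1. In 2 (Ifit2 and Mx2) they lay above, against 26.7% of all genes tested. All 9 called genes were among the 26 with a mean of at least 50 counts, and 0 of the other 8 was called by edgeR, by DESeq2 or at an unadjusted p under 0.05. Of the 25 uncalled genes, 15 had a 95% interval that stayed within 1 of 0 on the log2 scale, and for 9 the interval reached a fall of 1, so that a fall of this size was not excluded for those genes.

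The libraries of a group did not stand equally. DMSO replicate 2 was the highest of the DMSO libraries in 20 of 34 genes, and its log2 level was a median 0.10 above the group mean. Erastin replicate 3 was the highest erastin library in 19 of 34 genes, and erastin replicate 1 the lowest in 18. Replicate 3 was the lowest library for 14 of 34 genes in DMSO and for 8 of 34 with erastin. The macrophage marker sums given above were lowest in replicate 3 of both groups. The part of macrophages in the values of the 34 genes was not tested, and these counts cannot show it.

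The rest of the pathway was read from lists, also chosen with earlier results of these data known. They held 120 other genes, of which 118 had a row and 82 were tested. Of these, 34 were lower and 6 higher with erastin (edgeR adjusted p under 0.05), which is 41.5% and 7.32% against 21.5% and 21.6% of all genes tested. Interferons themselves were barely counted: of 21 interferon genes 18 had 0 counts in every library, and the other 3 (Ifnb1, Ifna7 and Ifnz) had at most 2 counts in a library, 4 in all DMSO libraries together and 5 in all erastin libraries. None could be tested, and a level under 3 counts a library was not detectable.

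The receptor and Janus kinase list had 3 of 9 tested genes lower (33.3%) and 1 higher (11.1%), against 21.5% and 21.6% of all genes tested. The median log2 fold change of this list was -0.24. Ifnar1, a chain of the type I receptor, fell from 99.9 ± 1.10 to 84.5 ± 4.44 CPM (n = 3, ± SD, log2 fold change -0.24, adjusted p = 0.0252 by edgeR). Ifngr1, of the type II receptor, fell from 30.7 ± 2.27 to 24.2 ± 1.21 CPM (n = 3, ± SD, adjusted p = 0.0298 by edgeR). Jak1, the kinase shared by both receptors, rose from 346 ± 10.7 to 422 ± 10.5 CPM (n = 3, ± SD, log2 fold change 0.29, SE 0.07, with adjusted p = 0.00279 by edgeR).

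The sensor and adaptor list had 3 of 12 tested genes lower (25%) and 1 higher (8.33%), and its median was 0.015. The share that fell was near the 21.5% of all genes tested, while 21.6% of all genes tested rose. Trim25, the ubiquitin ligase that activates RIG-I, had a log2 fold change of -0.66, Myd88, the Toll-like receptor adaptor, one of -0.83 and Tmem173, which encodes STING, the adaptor of DNA sensing, one of -0.82 (adjusted p = 3.93e-05, 0.000144 and 0.000249 by edgeR). Adar, the RNA-editing enzyme that keeps self RNA from the sensors, rose from 43.1 ± 6.60 to 66.8 ± 1.08 CPM (n = 3, ± SD, log2 fold change 0.63, adjusted p = 0.000281 by edgeR).

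Negative regulators went both ways, with 3 of 10 tested lower and 3 higher (median -0.31). Each share was 30%, against 21.5% and 21.6% of all genes tested. Socs3, the feedback inhibitor that STAT3 induces, fell from 61.6 ± 7.90 to 20.9 ± 0.731 CPM (n = 3, ± SD, log2 fold change -1.56, SE 0.11, with adjusted p = 7.77e-08 by edgeR). Pias3, named as an inhibitor of STAT3, fell too, with a log2 fold change of -0.73 (adjusted p = 0.00114 by edgeR). Pias1, its relative, rose from 33.8 ± 1.22 to 45.7 ± 3.67 CPM (n = 3, ± SD, adjusted p = 0.00351 by edgeR).

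The list nearest to the 38 genes, 45 further interferon-induced genes, had 30 tested members, of which 15 were lower and 0 higher (edgeR; 18 and 1 at an unadjusted p under 0.05, 16 and 0 with DESeq2). Its median log2 fold change was -0.93, and the edgeR shares of 50% and 0% stood against 21.5% and 21.6% of all genes tested. Ifitm2 and Ifitm3, membrane proteins that block virus entry, fell from 152 ± 8.89 to 76.1 ± 4.64 CPM and from 196 ± 6.13 to 105 ± 8.77 CPM (n = 3, ± SD, adjusted p = 2.65e-07 and 5.42e-07 by edgeR). Pml, the scaffold of nuclear bodies, fell from 71.0 ± 2.81 to 35.9 ± 3.10 CPM (n = 3, ± SD, adjusted p = 1.38e-06 by edgeR). The fibroblast markers given above had a median of -0.72, and their relation to the falls in this list was not tested.

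Antigen presentation genes, many of them induced through IRF1, had 4 of 13 lower and 0 higher by edgeR, with a median of -0.41. These shares, 30.8% and 0%, stood against 21.5% and 21.6% of all genes tested. At an unadjusted p under 0.05 the counts were 7 and 1, and with DESeq2 they were 4 and 0. Tapbp, Tap2 and Psmb10, which act in peptide loading, peptide transport and the immunoproteasome, had log2 fold changes of -0.91, -0.80 and -0.79 (adjusted p = 2.46e-05, 0.000486 and 0.00376 by edgeR). Of 8 genes for interleukin-6 family receptors and feedback, 6 were lower and 1 higher (75% and 12.5%, against 21.5% and 21.6% of all genes tested). Il6st, which encodes the shared receptor chain gp130, fell from 874 ± 44.2 to 445 ± 40.3 CPM and Lifr, the leukemia inhibitory factor receptor, from 85.4 ± 9.24 to 34.4 ± 7.71 CPM (n = 3, ± SD, adjusted p = 1.62e-07 and 2.59e-06 by edgeR). Pim1, a kinase gene that STAT factors activate, rose from 21.9 ± 2.20 to 90.8 ± 15.2 CPM (n = 3, ± SD, log2 fold change 2.05, SE 0.13, with adjusted p = 1.84e-08 by edgeR).

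**Figure D4:**
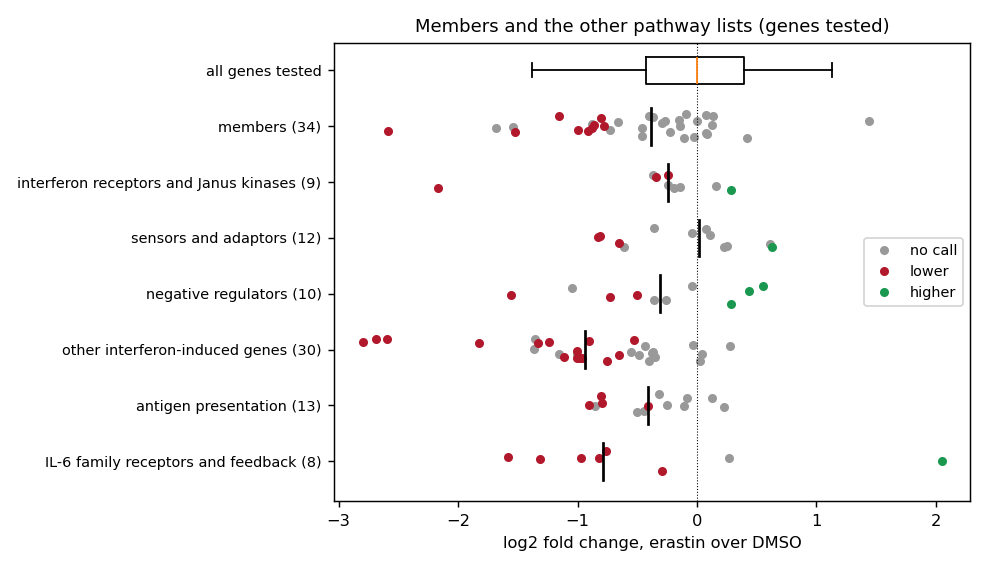
Log2 fold change of erastin over DMSO (horizontal axis) for the set (members) and the other pathway lists, 1 point per tested gene, with red for lower, green for higher and grey for no call, and a black bar at each median. The box gives the middle 50% of all 14000 genes tested, with whiskers from the 5th to the 95th percentile; the medians run from -0.93 for other interferon-induced genes to 0.015 for sensors and adaptors, against -0.001 for all genes.

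Shared sequence was limited among the 9 called genes. Between 0% and 7.1% of the 50-base words of their longest transcripts occur in other genes' transcripts, the highest share being that of Ifit1. In GENCODE M21 the exons of Stat2, Ifit1 and Oasl2 overlap no other gene's exons, and those of Irf1, Irf9, Stat3, Usp18, Ifi35 and Parp14 do so over 0.8% to 16.8% of their length. The largest of these overlaps is that of Ifi35 with Gm11626 on the opposite strand, and reads from both strands cannot be told apart where counting ignores strand, a setting not given in the sources used here.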

How the data were processed

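The authors deposited whole-number read counts per gene, 1 column for each of 6 libraries (3 DMSO, 3 erastin), without normalization. Per the labels' protocols, total RNA was depleted of ribosomal RNA, and libraries made with an Ion Total RNA-seq kit, including PCR, were read on an Ion Proton. The submitters' processing notes name HTSeq 0.9.1, SAMtools and mm10; the aligner, the annotation and the strand setting are not given in the sources used here. Symbols, transcripts and gene positions came from GENCODE M21 (GRCm38), which gave 98.0% of 43346 identifiers a symbol, and promoters from RefSeq (GRCm38.p6). The symbol Mb21d1 was matched as Cgas. Gbp5 and Gbp6 were not analysed here. All per-sample columns were used.

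Counts were fitted with edgeR 4.0.16 (limma 3.58.1, R 4.3.3): filterByExpr with a minimum count of 10 and a total of 15, TMM factors, and the quasi-likelihood test of erastin against DMSO over all 6 libraries, with Benjamini-Hochberg adjustment over 14000 genes and a threshold of 0.05. SEs and 95% intervals were computed from the model's weights and its moderated quasi-dispersion. The procedure was tested on simulated data. The smallest detectable level was taken as 3 counts and covers counting error only, since no molecular identifiers are described. Chi-square per degree of freedom was 11.0 to 19.2 for pairs of libraries within a group, so no library repeated another.

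The members and lists were chosen with earlier results of these data known. All 38 members are named. Values in every library were due for members with adjusted p under 0.05 and a change of 1 or more on the log2 scale in either direction and for IRF and STAT factors, and were added for others. Of each pathway list the 3 genes with the smallest p are named, and Adar and the pathway genes of the closing section were chosen after their values were seen. Alternatives were RLE and upper-quartile factors, total counts only, no filter, 1 CPM in 3 libraries, the replicate block, an offset for GC content and length (mgcv 1.9.3), thinning to the smallest library, DESeq2 1.42.0, adjusted p under 0.01 and leaving out each library.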

Additional observations from a re-analysis of the deposited data

How the results depend on the processing

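Over the alternatives run, 4305 to 6104 genes passed in all and 7 to 11 members were lower. The numbers tested changed too, with 31 to 38 members and 13047 to 26801 genes. The share of all genes tested that fell ran from 10.9% to 24.1%. It was lowest without the filter, where 9 of 38 members fell, and highest with upper-quartile factors, where 10 of 34 fell. The median log2 fold change of the members stayed between -0.46 and -0.27. Pathway genes were not counted at adjusted p under 0.01, and in the other alternatives 6 to 9 were higher and 28 to 38 lower. Irf1, Irf9, Stat2, Stat3, Ifit1, Oasl2 and Ifi35 passed as lower in all 17 alternatives each, Parp14 in 16 and Usp18 in 13; at adjusted p under 0.01 Usp18 and Parp14 were lost. The number of members higher, 0 as reported, was 1 with total counts only, without the filter, with the replicate block, and after thinning without and with the block (Ifit2 each time), 1 with the GC and length offset (Ifi27, adjusted p = 0.0454), and 0 to 1 when 1 library was left out. The replicate block gave 5882 genes and 9 members lower; equally numbered libraries had correlations of 0.040, 0.0038 and -0.0055 across genes, so the numbers were not taken to pair them, and 3 of 6 libraries correlated best with their own number. Small differences changed sign. The offset for GC content and length gave 0.17 for Bst2 and 0.095 for Isg20, and adding the replicate block to it gave 0.19 and 0.10; with total counts only Ifit3 was 0.066 and Rnf213 0.041, and without the filter Ifit3 was 0.020. Leaving out 1 library moved Bst2 between -0.19 and 0.11, Gbp3 between -1.02 and 0.21, Ifi27 between -0.004 and 0.16, Ifi44 between -0.66 and 0.013, Ifit3 between -0.66 and 0.33, Igtp between -0.16 and 0.41, Irf2 between -0.31 and 0.039, Isg15 between -0.001 and 0.31, Isg20 between -0.20 and 0.011, Oas1a between -1.08 and 0.065, Rnf213 between -0.085 and 0.032, and Xaf1 between -0.012 and 0.42. The cause was not tested. Where a library was left out, the smaller group had 2 libraries.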

Other observations

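Further genes of the pathway lists are given here, chosen after their values were seen. Samhd1, a phosphohydrolase that depletes deoxynucleotides, was at 49.0, 55.2 and 50.7 CPM in DMSO and 24.0, 23.5 and 18.2 CPM with erastin (log2 fold change -1.24, SE 0.12, with adjusted p = 1.52e-06 by edgeR). Of the 4 Schlafen genes tested, a family linked to the arrest of cell growth, 3 fell. By the same measure 21.5% of all genes tested fell, and 50% of the list of further interferon-induced genes that holds this family. Slfn9 fell from 8.24 ± 1.66 to 1.27 ± 0.905 CPM and Slfn2 from 8.39 ± 2.79 to 2.36 ± 1.25 CPM (n = 3, ± SD, adjusted p = 0.000337 and 0.00134 by edgeR). Slfn5 fell from 5.24 ± 0.219 to 2.60 ± 1.11 CPM (n = 3, ± SD, adjusted p = 0.0323 by edgeR), and Slfn8, whose groups overlapped, had a log2 fold change of -0.49 (adjusted p = 0.619 by edgeR). Irgm2 fell from 10.7 ± 1.09 to 4.25 ± 0.724 CPM (n = 3, ± SD, adjusted p = 0.000318 by edgeR), while its overlapping neighbour Igtp was at 3.62 ± 1.24 and 3.86 ± 1.02 CPM. Cgas, which encodes the cytosolic DNA sensor upstream of STING, was at 3.10, 3.55 and 4.75 CPM in DMSO and 5.91, 5.69 and 5.81 CPM with erastin; its groups did not overlap, but the difference did not pass (log2 fold change 0.61, SE 0.28, with adjusted p = 0.0973 by edgeR).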
